A study of Mus musculus with 8 samples.

Results

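Skeletal muscle fibres are excited by ion currents, and the genes described here encode the potassium, sodium and chloride channels that carry those currents, their auxiliary subunits, and the sodium pump that restores the gradients. They were chosen by gene name: symbols beginning with Kcn (potassium channels), Scn and a digit (sodium channels), Clcn (chloride channels and exchangers), Atp1a or Atp1b (sodium pump) or Fxyd (pump regulators), together with Lrrc38, Abcc8 and Abcc9, which encode channel subunits under other names. The rule found 135 of the 25655 gene rows. RNA came from the gastrocnemius, a calf muscle, of male mice of WT genotype at day 4, in 3 samples from mice made septic with cecal slurry, which is gut content in suspension and brings on a polymicrobial infection, and 5 control samples given 10% glycerol. The labels give no age or strain, and they do not say that each library came from a separate animal, so p-values measure the spread between these libraries, which may be technical. QuantSeq libraries tag each polyadenylated transcript at its 3′ end, so that read number does not grow with transcript length, and levels are given as CPM, read counts scaled for sequencing depth, with no division by length.

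An action potential in a fibre begins when voltage-gated sodium channels open, and it ends as those channels inactivate and voltage-gated potassium channels open. Chloride channels and inward rectifier potassium channels hold the membrane near its resting potential, and loss of the muscle chloride channel causes myotonia, in which fibres fire repeatedly. The sodium pump, a pair of alpha and beta subunits that can carry a small FXYD regulator, exports sodium and returns the potassium that leaves working fibres.

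Total counts were 3337851 to 3765726 per library in sepsis and 3086277 to 4016329 in controls, and 1 read was worth 0.21 to 0.266 CPM in septic libraries and 0.278 to 0.362 CPM in controls. Mitochondrially encoded genes gave 12.6% to 16.9% of reads in sepsis and 21.7% to 26.7% in controls, and the chi-square per degree of freedom between libraries of a group was 12.2 to 29.5 in sepsis and 2.16 to 7.63 in controls. All 10 listed muscle fibre markers had reads in both groups. Their summed level was 67261 to 94929.8 CPM in sepsis and 142933 to 168976 CPM in controls, with 8 of 10 lower past the threshold. Summed macrophage and pan-leukocyte markers (7 of 11 tested higher) were at 348 to 605 CPM in sepsis and 89.3 to 232 CPM in controls, and neutrophil markers at 69.7 to 154 CPM against 0.903 to 4.14 CPM. Among all genes tested 25.2% were lower and 25.2% higher, which stands beside each marker count here and below. In bulk muscle, fewer cells of a type and less RNA per cell cannot be told apart.

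Of the 135 genes, 31 had no read in any library, 63 had reads but too few to be tested, and 41 were tested. Differences are given as log2 fold changes, sepsis minus control, with a standard error (SE) and an adjusted p from edgeR (quasi-likelihood test, Benjamini-Hochberg over all 9810 genes tested), and a gene is said to rise or fall where that p is at most 0.05. By this rule 26 of the 41 fell, 7 rose and 8 did not pass. Among all genes tested, 50.4% passed, 25.2% lower and 25.2% higher, and these shares stand beside the counts of each role group below. The median log2 fold change was -0.92 for the 41 genes and 0.01 for all genes tested. Kcng4 had no septic read, and placing it at its bound left the median of the 41 genes at -0.92. Kcng4 lies below the median either way, so the median could not change. Of the 41, 17 fell and 5 rose at least 2-fold, where the shares over all genes tested were 14.2% and 11.8%. The septic libraries lay wholly below the controls for 22 of the 41 genes, wholly above for 7, and overlapped for 12, against 24.3% below and 23.1% above over all genes tested. The 41 include 9 genes that reached the count minimum of the filter in libraries of 1 group only, and of those 6 fell and 2 rose. Among those named below, Lrrc38, Clcn2, Kcng4, Kcnq5, Kcna1 and Kcna2 reached it only in controls, and Abcc8 and Kcnk5 only in sepsis. Such genes entered the test only through the group where they were high. Among the other 32 genes 20 fell and 5 rose. Scaling by library totals alone moved the median of all genes tested to 0.43, with 75.4% of all called genes higher in place of 50.1%, and then 17 members were lower and 9 higher, at a median of -0.51.

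**Figure D1:**
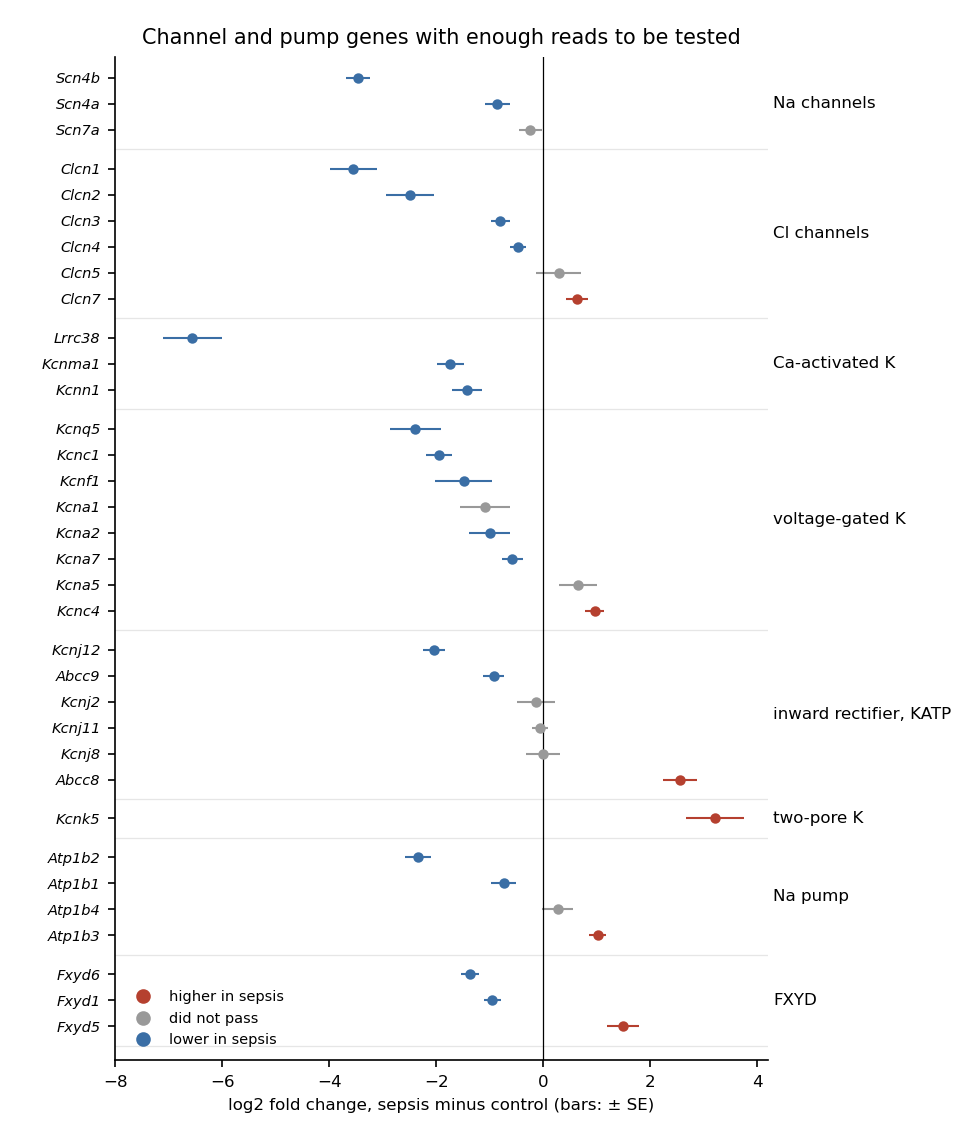
Log2 fold change (horizontal axis, sepsis minus control, bars ± SE from edgeR) for 34 of the 41 tested channel and pump genes, grouped by role, with genes higher in sepsis in red, lower in blue and not passing in grey. Kcng4 is left out because it had no septic read, and the other tested genes are not shown. Most points lie left of 0, and Clcn7, Kcnc4, Abcc8, Kcnk5, Atp1b3 and Fxyd5 lie to the right in red.

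The sodium channel genes that fell included pore and auxiliary subunits. Scn4a (ENSMUSG00000001027) encodes the pore-forming subunit that drives the action potential of adult muscle, and Scn4b encodes a beta subunit, a small membrane protein that modifies gating and surface expression. Scn4b (ENSMUSG00000046480) fell 11-fold, while Scn4a fell 1.81-fold. Of 14 sodium channel genes 4 were tested, of which 3 fell and none rose.

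Scn4b had 13.6, 10.9 and 5.94 CPM in sepsis 1, 2 and 3, against 97.2, 114, 119.9, 97.6 and 127 CPM in controls 1 to 5. Every septic library was far below every control, with sepsis 3 the lowest, and the log2 fold change was -3.46 (SE 0.22), edgeR adjusted p 1.16e-07. Scn4a had 15.4, 14.5 and 7.08 CPM in sepsis and 21.1, 22.6, 20.5, 24.6 and 22.9 CPM in controls. Its groups did not overlap either, with sepsis 3 again the lowest, and the log2 fold change of -0.86 (SE 0.23) had an edgeR adjusted p of 0.00655. With library totals alone Scn4a was at -0.43 and did not pass (edgeR adjusted p 0.131, 0.00261 to 0.131 over all alternatives).

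The other sodium channel genes had few reads. Scn7a, a sodium-sensing relative of the voltage-gated channels, had 7.69 ± 1.38 CPM in sepsis (SD, n = 3) and 9.16 ± 1.01 CPM in controls (n = 5), and did not pass, with a log2 fold change of -0.24 (SE 0.21). Scn3b, a further beta subunit gene, had 18 reads over the 3 septic libraries and 5 over the 5 controls. Scaled by the library sizes used for CPM, sepsis exceeded control 4.47-fold (95% counting interval 1.6 to 15.4). Scn2a, a pore-forming subunit gene of the brain, had 5 septic and 33 control reads, and its controls exceeded sepsis by a ratio of 5.32 (2.06 to 17.4). Both genes had too few reads for the main test. With no filter on low counts edgeR's adjusted p was 0.0408 for Scn3b and 0.0147 for Scn2a. Scn4a made up 52% ± 15.3 of the reads of all pore-forming sodium channel genes in sepsis and 63.4% ± 3.07 in controls. The difference was within the spread of the septic libraries (exact permutation p = 0.0893, two-sided, 56 splits). Without sepsis 1 the p was 0.0476, the smallest possible with a septic library left out. Its share was 65.2%, 55.6% and 35.2% in sepsis 1, 2 and 3.

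Among chloride channel genes the largest fall was in Clcn1 (ENSMUSG00000029862), the channel that carries most of the resting chloride conductance of muscle. It fell 11.7-fold. Of the 6 tested genes of this family 4 fell, 1 rose and 1 did not pass. The genes of endosomal exchangers Clcn3 and Clcn4 fell less, and Clcn7, which encodes the chloride-proton exchanger of lysosomes, rose 1.54-fold.

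Clcn1 had 14.4, 24.6 and 4.11 CPM in sepsis 1, 2 and 3, against 148, 172, 195, 166 and 164 CPM in controls 1 to 5. All septic libraries were below all controls, although sepsis 3 held far less than sepsis 2. The log2 fold change was -3.55 (SE 0.44), edgeR adjusted p 0.000241, and it was -4.22, or 18.6-fold lower in sepsis, without sepsis 2. Clcn1 supplied 16%, 19.5% and 5.59% of all chloride channel family reads in the septic libraries, against 57.9%, 56.7%, 60.9%, 57.4% and 58.7% in the controls. The mean share was 13.7% ± 7.25 in sepsis and 58.3% ± 1.65 in controls, and the exact permutation p was 0.0179, which is as small as 3 libraries against 5 can give. Adjusted p was 0.0626 over the 7 values of this kind planned and 0.0328 over all 11 computed. The 3′ end of Clcn1 overlaps Fam131b on the opposite strand in the GENCODE annotation of an earlier mouse build. Because the strand setting of the counting is not given in the sources used here, reads of the 2 genes may not be fully separated. Fam131b was at 3.2 ± 2.62 CPM in sepsis and 44.2 ± 3.93 CPM in controls, a log2 fold change of -3.76 (SE 0.4). Its part in the Clcn1 value was not tested.

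Clcn2, a broadly expressed plasma membrane chloride channel gene, had 0.743 ± 0.419 CPM in sepsis and 4.49 ± 0.987 CPM in controls and fell by 2.49 on the log2 scale (SE 0.44). Its 3′ end likewise overlaps Fam131a, which was at 4.87 ± 2.29 CPM in sepsis and 55.2 ± 5.37 CPM in controls. Clcn3 was at 35.9, 48.9 and 28.8 CPM in sepsis and 56.1 to 70.9 CPM in controls, and fell by 0.80 (SE 0.17). Clcn4 was at 25.3 to 33.4 CPM in sepsis and 35.5 to 43.6 CPM in controls, and fell by 0.47 (SE 0.15). Neither passed with library totals alone, where the log2 fold changes were -0.37 and -0.05, and Clcn4 also lost the call in the replicate block (-0.5, edgeR adjusted p 0.0716). Clcn7 was at 8.51, 9.66 and 8.9 CPM in sepsis and 5.02 to 6.94 CPM in controls. Every septic library was above every control, but its log2 fold change of 0.63 (SE 0.21, edgeR adjusted p 0.0247) did not hold in all alternatives. It lost the call with DESeq2, with limma, without the filter, in the replicate block, and without control 2, control 5 or sepsis 2 (edgeR adjusted p 0.0582, 0.0511 and 0.0652 for the last 3). Ostm1, the subunit that accompanies the lysosomal exchanger, fell by 0.93 (SE 0.25), and the macrophage and pan-leukocyte markers given above were higher in sepsis. Their part in the Clcn7 value was not tested. Clcn5 had 4.25 ± 2.2 CPM in sepsis and 3.51 ± 1.65 CPM in controls and did not pass. Clcn6 had 22 septic and 19 control reads.

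**Figure D2:**
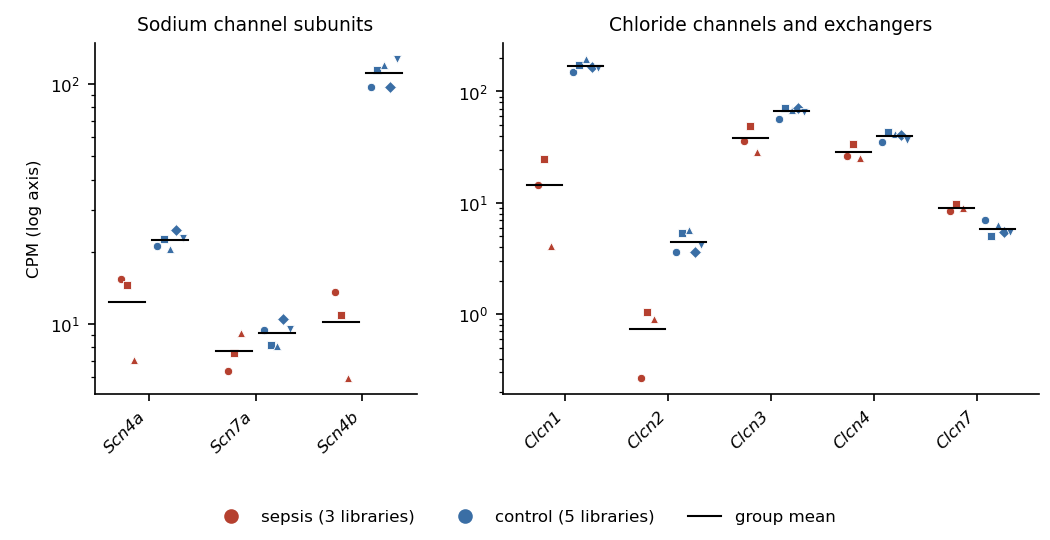
CPM (log axis) of sodium channel genes (left panel) and chloride channel family genes (right panel) in each library, with sepsis in red to the left of control in blue for each gene. Marker shape gives the replicate (circle 1, square 2, triangle 3, diamond 4, inverted triangle 5) and bars the group means. Scn4b and Clcn1 are about a factor of 11 lower in sepsis, whereas Scn7a overlaps between groups.

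Potassium channels opened by calcium fell in all 3 tested cases. Kcnma1 encodes the pore of the large-conductance calcium-activated channel, and Lrrc38 encodes a leucine-rich auxiliary subunit of that channel that eases its opening. Lrrc38 was almost absent from septic muscle and Kcnma1 fell 3.34-fold. Kcnn1, a small-conductance calcium-activated channel gene, fell 2.7-fold.

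Lrrc38 (ENSMUSG00000028584) had 0, 0.84 and 0 CPM in sepsis 1, 2 and 3, against 24.4, 44.3, 35.8, 35.8 and 21.7 CPM in controls 1 to 5. Its septic reads numbered 4, all in sepsis 2, against 515 in controls. Scaled by the library sizes used for CPM, control reads were 104 times the septic reads (95% counting interval 40.3 to 382). The fitted log2 fold change was -6.56 (SE 0.55), edgeR adjusted p 2.36e-06. Without sepsis 2 no septic read was left, which gives a level at least 87.3-fold lower in sepsis, from a floor of 3 reads over the remaining septic libraries. Kcnma1 (ENSMUSG00000063142) had 29, 16.8 and 11 CPM in sepsis, against 66.1, 63.1, 62.6, 68.3 and 53.5 CPM in controls. All septic libraries were below all controls, and the log2 fold change was -1.74 (SE 0.25), edgeR adjusted p 0.000114. Kcnn1 was at 3.09 ± 0.537 CPM in sepsis and 8.46 ± 1.78 CPM in controls, with -1.43 (SE 0.28). Kcnn3, a relative known from denervated muscle, had 1 read in each group. Kcnn2 had 1 septic and 13 control reads, a ratio of controls to sepsis of 10.5 (1.57 to 445). The beta subunit genes of the large-conductance channel, Kcnmb1 to Kcnmb4, had between 2 and 11 reads each over all libraries.

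Voltage-gated potassium channel genes mostly fell as well. Of 40 pore-forming genes 12 were tested, and 9 fell, 1 rose and 2 did not pass, at a median of -1.29. Kcnc1, which encodes a fast delayed rectifier channel that repolarises excitable cells, fell 3.87-fold. Kcng4, a subunit that forms no channel alone and modifies other voltage-gated channels, had no septic read. Kcnc4, a fast-inactivating relative of Kcnc1 known in skeletal muscle, rose 1.95-fold.

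Kcng4 (ENSMUSG00000045246) had 0 reads in sepsis 1, 2 and 3, against 13.3, 11.6, 10.2, 10.1 and 8.6 CPM in controls 1 to 5, or 174 reads. With a floor of 3 reads over the septic group, its level was at least 46.7-fold lower in sepsis. Kcnc1 (ENSMUSG00000058975) had 19.4, 16.4 and 8.22 CPM in sepsis, against 46.6, 54.9, 70.5, 53.9 and 57.4 CPM in controls. The groups were apart, with sepsis 3 lowest, and the log2 fold change was -1.95 (SE 0.24), edgeR adjusted p 2.56e-05. Kcnc4 (ENSMUSG00000027895) had 41, 46.6 and 59.4 CPM in sepsis, against 23, 30.1, 18.4, 28.6 and 25.8 CPM in controls. Here every septic library was above every control, and the log2 fold change was 0.96 (SE 0.18), edgeR adjusted p 0.000503. Kcnc1 was thus the higher of the pair in every control library, and Kcnc4 the higher in every septic library.

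Further pore-forming genes were lower, not all of them in every alternative. Kcnq5, which encodes a channel of the slowly activating M-current family, had 0.965 ± 0.608 CPM in sepsis and 5.34 ± 1.86 CPM in controls and fell by 2.39 on the log2 scale (SE 0.47). Kcna7, a channel gene known mainly from muscle, was at 27.9, 20.4 and 15.5 CPM in sepsis and 27.5 to 39.8 CPM in controls. Its groups overlapped, and its log2 fold change of -0.58 (SE 0.2, edgeR adjusted p 0.0268) lost the call with library totals alone, in the replicate block, and without control 3, sepsis 2 or sepsis 3, where edgeR's adjusted p was 0.0685, 0.0631 and 0.0969. Kcnf1, an electrically silent subunit gene, had a log2 fold change of -1.49 (SE 0.54) at 1.41 ± 0.963 CPM in sepsis and 4.22 ± 2.19 CPM in controls. That call was lost without control 2, control 4, sepsis 1 or sepsis 3, at an edgeR adjusted p of 0.0734 to 0.107. It was also lost with library totals alone (adjusted p 0.125), in the replicate block (0.0804) and with limma (0.207), and without sepsis 2 the value was -2.21.

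Kcna1 and Kcna2 encode channels known from myelinated axons. Kcna2 had 1.88 ± 0.36 CPM in sepsis and 3.83 ± 1.16 CPM in controls, with a log2 fold change of -1 (SE 0.38, edgeR adjusted p 0.0419). Its call was lost when any library other than control 1 was left out, at an edgeR adjusted p of 0.0622 to 0.128. It was also lost with library totals alone (adjusted p 0.198), with no filter (0.0756), with DESeq2 (0.0741) and with limma (0.188), so that 4 of the 15 alternatives that tested Kcna2 kept it. Kcna1 had 1.54 ± 0.256 CPM in sepsis and 3.37 ± 1.51 CPM in controls and did not pass (log2 fold change -1.09, SE 0.46, edgeR adjusted p 0.0644), although it passed without control 1 at 0.0111. The 11 Schwann cell markers summed to 47.9 to 66.2 CPM in sepsis and 90.5 to 188 CPM in controls, with 5 of 8 tested lower, among them the myelin gene Mbp at 10.5 ± 0.363 CPM in sepsis and 23.1 ± 6.2 CPM in controls, and Cdh19 at 0 in sepsis. Their part in the Kcna1 and Kcna2 values was not tested. Kcna5, a delayed rectifier gene of heart and vessels, had 3.63 ± 1.13 CPM in sepsis and 2.36 ± 0.757 CPM in controls and did not pass.

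Of the 13 genes for cytoplasmic and membrane accessory subunits of voltage-gated potassium channels, none had enough reads for the test. Kcnab2, which encodes a cytoplasmic beta subunit, had 36 septic and 17 control reads, a ratio of 2.63 (1.44 to 4.99), and its relative Kcnab1 had 4 and 17, a ratio of controls to sepsis of 3.42 (1.12 to 14). With no filter on low counts edgeR called Kcnab2 higher, at an adjusted p of 0.0397. Kcne3, the membrane subunit that pairs with Kcnc4 in muscle, had 5 septic and 6 control reads, so a change in it was not detectable at this depth.

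The promoters of 3 genes that fell steeply and of Kcnc4, which rose, are shown so that their sequences can be set side by side. Each line gives the 250 bases before the transcription start, 5′ to 3′ on the gene's strand, from RefSeq's GRCm38.p6 annotation, a build earlier than the GRCm39 of the counts. Capitals mark matches on either strand to CANNTG, the E-box bound by myogenic factors of the MyoD family, and to a MEF2-type motif, CTA and TAG with any 4 bases between them. The windows are chr9:45138374-45138623 (plus strand) for Scn4b, chr6:42286435-42286684 (plus) for Clcn1, chr4:143349500-143349749 (plus) for Lrrc38 and chr3:107458899-107459148 (minus) for Kcnc4.
Scn4b: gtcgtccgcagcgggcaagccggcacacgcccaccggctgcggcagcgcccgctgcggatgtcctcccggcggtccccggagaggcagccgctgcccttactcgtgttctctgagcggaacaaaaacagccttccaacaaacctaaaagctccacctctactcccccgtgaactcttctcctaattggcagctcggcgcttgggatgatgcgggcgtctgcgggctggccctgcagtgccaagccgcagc
Clcn1: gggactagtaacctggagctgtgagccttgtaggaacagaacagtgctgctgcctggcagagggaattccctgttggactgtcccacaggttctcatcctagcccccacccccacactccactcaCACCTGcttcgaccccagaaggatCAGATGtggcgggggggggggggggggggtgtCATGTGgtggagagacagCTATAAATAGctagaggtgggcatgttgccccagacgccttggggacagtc
Lrrc38: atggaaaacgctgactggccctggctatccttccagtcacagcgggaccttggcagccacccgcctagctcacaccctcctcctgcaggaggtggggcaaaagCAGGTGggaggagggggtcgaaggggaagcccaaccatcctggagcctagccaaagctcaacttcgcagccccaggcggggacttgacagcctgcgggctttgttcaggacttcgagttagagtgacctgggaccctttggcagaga
Kcnc4: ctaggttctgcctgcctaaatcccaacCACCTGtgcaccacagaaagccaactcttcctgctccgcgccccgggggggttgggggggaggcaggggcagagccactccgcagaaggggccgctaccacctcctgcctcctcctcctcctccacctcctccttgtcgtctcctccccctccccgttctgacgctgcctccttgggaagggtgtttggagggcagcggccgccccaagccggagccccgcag
Clcn1 held 3 E-box matches, beginning 125, 101 and 69 bases before the start, and 1 MEF2-type match beginning 51 bases before it, and these did not overlap. Lrrc38 held 1 E-box match 147 bases before the start and Kcnc4 1 at 223 bases, and Scn4b held neither motif in this window. Windows were found for 31 of the 41 tested genes, 38 windows in all. An E-box was present in 14 of 24 windows of genes that fell, 6 of 7 windows of genes that rose and 66.2% of the 32851 windows of all genes. A MEF2-type match was present in 1 of 24, 0 of 7 and 3.2%. The FOXO-type motif GTAAACA was in 0 of 24, 0 of 7 and 3.17%, the STAT-type motif TTCNNNGAA in 0 of 24, 1 of 7 and 7.02%, and the glucocorticoid receptor motif TGTTCT in 3 of 24, 0 of 7 and 16.1%. Matches were sought on both strands, and a match describes the letters and not the binding of a factor.

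Inward rectifier genes and those of the ATP-sensitive potassium channel went in different directions. Inward rectifiers set the resting potential, and the ATP-sensitive channel, a pore of Kcnj11 or Kcnj8 subunits surrounded by the sulfonylurea receptor Abcc9 or Abcc8, opens when cellular energy falls. Kcnj12 fell 4.12-fold while its partner in the classical muscle inward rectifier, Kcnj2, did not pass. Abcc9, the receptor gene of muscle, fell 1.9-fold, Abcc8, the receptor gene of pancreatic beta cells and neurons, rose 5.88-fold, and the pore gene Kcnj11 did not pass.

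Kcnj12 (ENSMUSG00000042529) had 9.04, 6.09 and 5.48 CPM in sepsis 1, 2 and 3, against 28.9, 30.8, 30.1, 25.3 and 25.5 CPM in controls 1 to 5. The groups were well apart, and the log2 fold change was -2.04 (SE 0.2), edgeR adjusted p 3.22e-06. Kcnj2 (ENSMUSG00000041695) had 34, 22.3 and 14.2 CPM in sepsis and 30, 22.6, 18.7, 15.5 and 41.4 CPM in controls. Both groups spread widely and overlapped, with a log2 fold change of -0.14 (SE 0.35) that was 0.27 with library totals alone. In every septic library Kcnj2 was above Kcnj12, while in the controls Kcnj12 was above Kcnj2 in 3 of 5 libraries.

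Abcc9 (ENSMUSG00000030249) had 98.4, 86.1 and 48.6 CPM in sepsis, against 132, 144, 154, 153 and 155 CPM in controls. The septic libraries were all below the controls, and the log2 fold change was -0.93 (SE 0.19), edgeR adjusted p 0.00126. Abcc8 (ENSMUSG00000040136) had 12.5, 8.4 and 6.16 CPM in sepsis, against 1.94, 1.57, 1.2, 1.45 and 1.27 CPM in controls. Every septic library was at least 3 times the highest control, and the log2 fold change was 2.56 (SE 0.32), with an edgeR adjusted p of 2.73e-05. Abcc8 reached the count minimum only in septic libraries. Abcc9 stayed the more abundant receptor transcript in every library. Kcnj11 (ENSMUSG00000096146) had 108, 67.2 and 76.3 CPM in sepsis and 87.4, 95.1, 85.2, 85.3 and 82.8 CPM in controls, and its log2 fold change was -0.06 (SE 0.15). The septic libraries lay on both sides of the controls, and with library totals alone the value was 0.34 and passed (edgeR adjusted p 0.0344).

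Kcnj8, the pore subunit gene of vessels, had 8.68 ± 3.51 CPM in sepsis and 8.65 ± 2.95 CPM in controls, a log2 fold change of 0 (SE 0.32). Kcnj11 made up 90.1% ± 4.72 of the reads of the 2 pore genes in sepsis and 91% ± 2.99 in controls (p = 0.768, exact permutation test). Abcc9 and Kcnj8 are also pericyte and smooth muscle genes. The 11 markers of those cells summed to 255 to 268 CPM in sepsis and 323 to 403 CPM in controls. Of 10 tested 3 were lower, near the 25.2% lower among all genes tested, and 7 did not pass. None of these 11 was at 0 in either group, and their part in the Abcc9 value was not tested. Of the other 11 inward rectifier genes, 3 had reads: Kcnj15 and Kcnj13 had 10 and 7 septic and 10 and 8 control reads, and Kcnj3 had 1 and 10.

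Of the 14 genes of two-pore channels, which carry background potassium currents, only Kcnk5 had enough reads for the test. Kcnk5 (ENSMUSG00000023243), an acid-sensitive background channel gene, had 5.32, 4.41 and 13.7 CPM in sepsis and 0.278, 1.88, 0.903, 0.723 and 0.319 CPM in controls. It rose with a log2 fold change of 3.21 (SE 0.54, edgeR adjusted p 0.000299), or 2.52 without sepsis 3, the library that held most of its reads. It reached the count minimum only in septic libraries. Kcnk3, a related gene, had 26 septic and 16 control reads, a ratio of 2.02 (1.04 to 4.02), and Kcnk2, a mechanically gated channel gene, had 7 and 22.

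**Figure D3:**
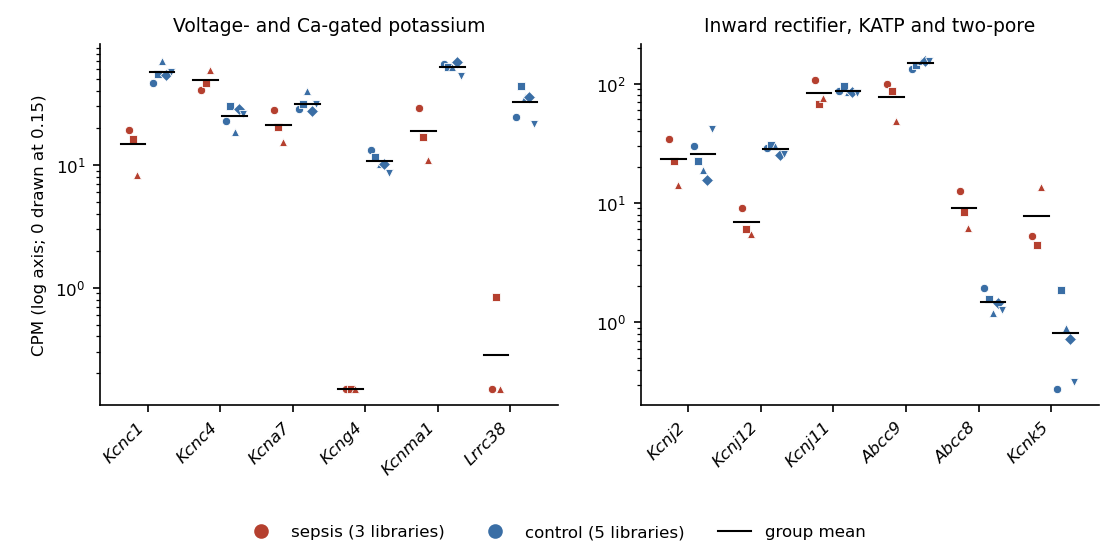
CPM (log axis, values of 0 drawn at 0.15) of voltage- and calcium-gated potassium channel genes with Lrrc38 (left panel) and of inward rectifier, ATP-sensitive and two-pore channel genes (right panel) in each library, with sepsis in red to the left of control in blue. Marker shape gives the replicate (circle 1, square 2, triangle 3, diamond 4, inverted triangle 5) and bars the group means. Kcnc4, Abcc8 and Kcnk5 are higher in sepsis, Kcng4 is at 0 in all 3 septic libraries, and Kcnj2 and Kcnj11 overlap.

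Of the 6 tested sodium pump genes 2 rose, 3 fell and 1 did not pass, against 25.2% higher and 25.2% lower among all genes tested. With library totals alone, and with no filter, 1 of them fell. The beta subunits, without which the pump does not reach the membrane, went in different directions: Atp1b2, the form of fast fibres, fell 5.07-fold, Atp1b1 fell 1.67-fold and Atp1b3 rose 2.03-fold.

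Atp1b1 (ENSMUSG00000026576) had 164, 115 and 72.6 CPM in sepsis and 230.4, 155, 187, 201 and 201 CPM in controls. Sepsis 1 lay above control 2, so the groups overlapped, and the log2 fold change was -0.74 (SE 0.23, edgeR adjusted p 0.0189). Its 3′ end overlaps Nme7 on the opposite strand in GENCODE, which had 7 septic and 23 control reads. Atp1b1 lost the call with library totals alone, with no filter, and without sepsis 2 (edgeR adjusted p 0.0729). Atp1b2 (ENSMUSG00000041329) had 19.1, 10.1 and 27.9 CPM in sepsis, against 94.4, 92.3, 100.3, 102 and 92.1 CPM in controls. All septic libraries were far below the narrow band of controls, and the log2 fold change was -2.34 (SE 0.25), with an edgeR adjusted p of 1.42e-05. Atp1b3 (ENSMUSG00000032412) had 34.8, 48.9 and 51.8 CPM in sepsis, against 25.8, 24.2, 19, 20.6 and 22 CPM in controls. It was above all controls in every septic library, and the log2 fold change was 1.02 (SE 0.16), with an edgeR adjusted p of 0.000187.

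Among the reads of these 3 beta genes, Atp1b2 made up 8.8%, 5.8% and 18.3% in the septic libraries and 26.9% to 34% in the controls, and Atp1b3 made up 16%, 28.1% and 34% in sepsis and 6.2% to 8.9% in controls. Each of these 2 shares had an exact permutation p of 0.0179, the smallest possible (adjusted p 0.0328 over all 11 values), and both were added after the data were seen. The share of Atp1b1 was 63% ± 14 in sepsis and 61.9% ± 3.24 in controls (exact permutation p = 0.857). The difference changed sign without control 2, sepsis 1 or sepsis 2, and without sepsis 3 it was 8.68 percentage points (exact permutation p = 0.0476, the smallest possible there). Atp1b4, which in placental mammals is a nuclear membrane protein of muscle and not a pump subunit, had 5.92 ± 1.36 CPM in sepsis and 4.89 ± 1.37 CPM in controls and did not pass.

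FXYD proteins tune the pump's affinity for its ions. Fxyd1 (ENSMUSG00000036570), or phospholemman, the main form of heart and skeletal muscle, had 242, 163 and 141 CPM in sepsis, against 317, 367, 359.9, 348 and 371 CPM in controls. The groups did not overlap, and it fell with a log2 fold change of -0.95 (SE 0.16, edgeR adjusted p 0.000225). Fxyd6 (ENSMUSG00000066705), a form best known from brain, had 22.1, 20.4 and 15.8 CPM in sepsis, against 44.1, 48, 46.7, 64.7 and 46.8 CPM in controls. It fell with -1.37 (SE 0.17, edgeR adjusted p 2.59e-05), and control 4 stood above the other controls. Fxyd5, or dysadherin, which also lowers cell adhesion, had 11.2 ± 2.05 CPM in sepsis and 3.92 ± 1.64 CPM in controls and rose by 1.49 (SE 0.3, edgeR adjusted p 0.00104). Fxyd5 is known from epithelial and immune cells, and the leukocyte markers given above were higher in sepsis. Their part in the Fxyd5 value was not tested. Fxyd1 made up 84.3% ± 3 of FXYD reads in sepsis and 86.4% ± 1.95 in controls, a difference within the spread (exact permutation p = 0.375). Fxyd2, the kidney form, had 22 septic and 11 control reads, a ratio of 2.48 (1.15 to 5.67).

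Summed over all 135 genes, the level was 5473, 3346 and 6915 CPM in sepsis and 3098 to 3519 CPM in controls (exact permutation p = 0.0536, and 0.0476, the smallest possible there, without sepsis 2). The sum is weighted by its most abundant members and does not give the direction of most genes. Of the 41 tested genes 26 fell and 7 rose, at a median log2 fold change of -0.92.

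**Figure D4:**
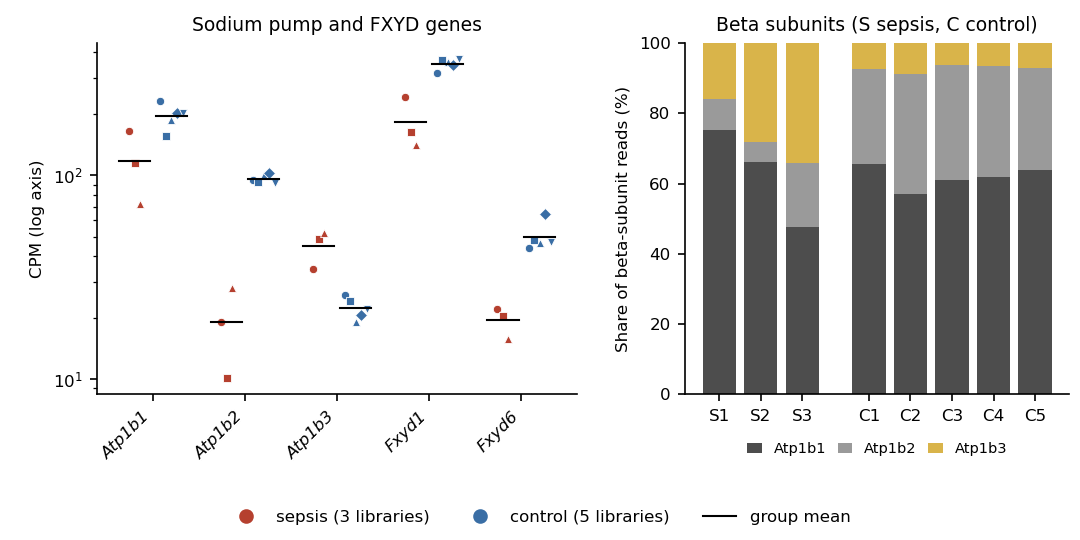
Left panel, CPM (log axis) of sodium pump and FXYD genes in each library, with sepsis in red to the left of control in blue, marker shape for the replicate (circle 1, square 2, triangle 3, diamond 4, inverted triangle 5) and bars for the group means. Right panel, share (%) of Atp1b1, Atp1b2 and Atp1b3 in their summed reads in each library. Atp1b3 is higher and Atp1b2 lower in all 3 septic libraries, and the Atp1b2 share is 5.8% to 18.3% in sepsis and 26.9% to 34% in controls.

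Genes that anchor, regulate or work beside these channels were taken from 5 lists. The counts of each list stand beside 25.2% higher and 25.2% lower among all genes tested, and no list was tested as a set. Among 16 tested anchors and trafficking partners 3 rose and 5 fell, at a median of -0.09. Ank3, or ankyrin-G, which anchors voltage-gated sodium channels, rose to 605 ± 93.3 CPM in sepsis, against 208 ± 13.8 CPM in controls, and the membrane-recycling gene Ehd4 and Popdc3 rose by 1.19 (SE 0.14) and 1 (SE 0.15) on the log2 scale. Ank1, with muscle forms that tie the sarcoplasmic reticulum to the sarcomere, fell 6.45-fold. Ank2, the caveolin gene of muscle Cav3, Popdc2 and Ostm1 fell between 1.9-fold and 3.32-fold.

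Among 21 tested kinases, ligases and related regulators 5 rose and 8 fell, at a median of -0.18. Camk2a, a calcium/calmodulin-dependent kinase gene, fell to 64.9 ± 31.4 CPM in sepsis, against 629 ± 48.7 CPM in controls, and its relative Camk2b fell 2.05-fold. The protein kinase genes Prkca and Prkaca fell 3.29-fold and 2.98-fold. Pim1, a cytokine-induced kinase gene, rose to 424 ± 47.3 CPM in sepsis, against 61.5 ± 25.6 CPM in controls, and Sgk3, Prkaa1, Cul3 and Ppp1r1a rose between 1.33-fold and 2.52-fold. The number that rose was 3 without sepsis 3.

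Among 18 tested cotransporters and exchangers 5 rose and 5 fell, at a median of -0.13. Slc12a2, the sodium-potassium-chloride cotransporter that loads cells with chloride, rose to 174 ± 47.4 CPM in sepsis, against 64.4 ± 6.91 CPM in controls. The potassium-chloride cotransporter genes Slc12a7 and Slc12a4 and the lactate transporter gene Slc16a1 rose by 0.96, 0.80 and 0.96 on the log2 scale. The sodium-calcium exchanger gene Slc8a3 fell to 4.52 ± 3.97 CPM in sepsis, against 41.8 ± 5.48 CPM in controls, the lactate exporter gene Slc16a3 fell 5.68-fold, and Slc4a4 and Slc9a2 fell 3.07-fold and 2.24-fold.

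Among 14 tested genes of other anion channels 3 rose, Clic5, Clic4 and Clic1, by 1.26, 0.91 and 0.95 on the log2 scale, and 4 fell. Those were Ano5, a muscle membrane scramblase gene, by 1.60, Ttyh2 by 1.95, and the mitochondrial outer membrane channel genes Vdac3 and Vdac1 by 0.86 and 0.71. Among 9 tested calcium pump and pump regulator genes 4 fell and 1 rose. Atp2a1, the calcium pump of fast fibres, was at 5617 ± 1113 CPM in sepsis and 10434 ± 1036 CPM in controls. Its inhibitor Mrln and the plasma membrane pump genes Atp2b3 and Atp2b1 fell 5.01-fold, 7.6-fold and 1.36-fold, and Pln, another inhibitor, had 0.82 (SE 0.32) at an edgeR adjusted p of 0.0497, a call lost with upper-quartile factors, with no filter, with DESeq2, with limma, in the replicate block, and without control 2 or 4. With library totals alone the number higher was 7 among anchors, 9 among kinases and ligases, 7 among cotransporters and exchangers, 6 among other anion channels and 2 among pumps, and the number of kinases and ligases lower was 5.

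Among the 63 genes with too few reads to be tested, none had more than 53 reads over the 8 libraries, and 33 had 10 or fewer. Their ratios were scaled by the TMM library sizes used for CPM, and were not computed with library totals alone, so the counts that follow hold for that scaling. Counting intervals of the ratio lay wholly above 1 for 5 of them (among them Scn3b, Kcnab2, Kcnk3 and Fxyd2). They lay wholly below 1 for 6 (Scn2a, Kcnn2, Kcnu1, Kcnj3, Kcnk2 and Kcnab1). These intervals cover counting error only and not the spread between libraries. The 31 genes without a read include Kcna3, Kcnj5, Kcnj10, Scn10a and Fxyd4.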

How the data were processed

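The authors deposited 1 table of raw read counts per gene with a column for each library, per the file headers, and nothing else was used. Each QuantSeq library took 25 ng of total RNA, per the labels' protocols. The genome build was GRCm39, per the submitters' processing notes. The sources used here do not give the aligner, the counter, the strand setting or the annotation.

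All 135 gene identifiers carried the same symbol in the GENCODE name table. Tests used R 4.3.3 and edgeR 4.0.16, whose expression filter chose the genes tested (minimum count 10, minimum total 15). Libraries were scaled by TMM factors, and the groups compared by the quasi-likelihood F test with robust dispersions over 3 septic and 5 control libraries, fitted on the whole table and adjusted by Benjamini-Hochberg. The SE is the log2 fold change over the square root of F. CPM, the ratios of reads and the bounds used TMM-scaled library sizes. Shares and sums got an exact permutation p, two-sided, over all 56 splits. Counting intervals are exact binomial at 95% and, like the floor of 3 reads, cover counting error only. The procedure was tested on simulated data.

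The members, the gene lists and the marker lists were chosen with earlier results of these data known. Values in every library are given for tested members past the threshold with at least a 2-fold change and a mean log2 CPM of at least 3, and for the key members chosen; some members are not reported here; lists name up to 4 members by smallest p, or all where 5 or fewer moved in a direction. Alternatives used other scalings, no filter, DESeq2 1.42.0, limma 3.58.1 (voom with a variance per group), mitochondrially encoded genes left out, a replicate block, and each library left out.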

Additional observations from a re-analysis of the deposited data

Results flagged for a closer look

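Of 52 values checked in the 5 controls, 1 had a library that stood apart from the rest: Fxyd6 was at 64.7 CPM in control 4, and the next highest control had 48 CPM. Chance alone sets about 1 in 20 groups apart in this way. Fxyd6 kept its call and direction in every alternative, control 4 left out among them.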

How the results depend on the processing

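Of the 33 members called, 23 kept call and direction in all 16 alternatives (6 higher, 17 lower). With library totals alone the values were 17 members lower, a median of -0.51, 2 chloride channel genes, 1 pump gene and 5 voltage-gated genes lower, and 2 inward rectifier or ATP-sensitive and 2 voltage-gated genes higher. Higher were then 7 anchors, 9 kinases (5 lower), 6 anion channel genes and 2 P-type pump genes, the summed level differed by 3197 CPM (exact permutation p = 0.0179), and Scn7a, Kcnj11 and Kcnj2 turned to 0.18, 0.34 and 0.27. With no filter 0 chloride channel genes, 2 sodium channel genes and 0 P-type pump genes were higher, and 1 pump gene and 8 anchors lower. DESeq2 and limma each gave 0 higher for chloride channels and P-type pumps, and upper-quartile factors gave 0 for P-type pumps. Kcnj8, at 0, was -0.04 with upper-quartile factors, -0.01 with limma and -0.05 in the replicate block. With single libraries left out, the ranges were 0 to 1 higher for chloride channels and for P-type pumps, 3 to 5 for kinases, -1.06 to -0.68 for the members' median, -0.33 to 0.24 for Kcnj8, -0.29 to 0.08 for Kcnj11, -0.5 to 0.12 for Kcnj2 and -0.16 to 0.58 for Clcn5. The differences in share ranged from -5.07 to 8.68 percentage points for Atp1b1, -3.52 to 1.08 for Kcnj11 and -17.9 to -2.94 for Scn4a, and the summed level from 1077 to 2861 CPM. An exact permutation p of 0.0476 was reached by the Scn4a share without sepsis 1, the Atp1b1 share without sepsis 3 and the summed level without sepsis 2. That is the smallest p possible with a septic library left out. The cause of these shifts was not tested.

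Control and sepsis share replicate numbers 1 to 3. Deviations of same-numbered libraries from their group means correlated at -0.124 to 0.0409 over 3 pairs, and those of differently numbered libraries at -0.0923 to 0.129. So few pairs cannot exclude a pairing, and the main test did not take the number as one. With it as a replicate block, over 6 libraries, 21 members were lower and 6 higher, with 0 chloride channel genes, 0 P-type pump genes and 3 kinases higher. Paired by number, the Clcn1 share of chloride channel reads differed by -44.8 percentage points. With 1 read worth 0.21 to 0.362 CPM, genes below about 1 CPM rest on a few reads per library.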
